A study of Mus musculus with 2 samples.

Results

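The myelin and maturing oligodendrocyte genes described here are 9 genes fixed by name: Gpr17, Bcas1, Cnp, Ugt8a, Cldn11, Mbp, Mobp, Mag and Mog. All 9 were found by symbol among the 17359 genes of the deposited expression table. The series profiled the RNA of mouse neural stem cells, the dividing progenitors of neurons and glia, in 2 groups of 1 library each. The siSCR cells carry the genotype label control and received a scrambled small interfering RNA (siRNA). The siChd4 cells are labelled Chd4 knockdown and received an siRNA against Chd4, the ATPase subunit of NuRD, a complex that remodels chromatin. The labels name no strain, age or source of the cells, and no dose or duration of the siRNA. The series concerns the nuclear pore protein Seh1 in neurogenesis, and this comparison asks how expression differs when Chd4 is targeted.

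Oligodendrocytes are the glia that wrap axons of the brain and spinal cord in myelin, a stack of lipid-rich membrane held together by a small set of abundant proteins. They come from dividing precursors, which pass through a committed, premyelinating stage before they wrap axons. Gpr17 and Bcas1 mark that middle stage. Cnp is made early and kept in myelin, Mbp and Mobp lie in compact myelin, and Mog and Mag, on its outer and innermost layers, belong to mature cells. Cldn11 seals the layers with tight junctions, and Ugt8a makes the main myelin glycolipid.

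RefSeq promoters of 6 of the 9 genes were searched, each 250 bases before to 50 after a start site. Any promoters of the 9 genes on 1 chromosome were left out, and none of Bcas1, Gpr17 or Mbp was searched. A total of 4 are shown, because 3 belong to genes that were higher in siChd4 (Cnp, Cldn11 and Ugt8a) and 1 to a gene at a few counts in both libraries (Mobp). They lie, in build GRCm38.p6, at chr11:100574689-100574988 on the plus strand (Cnp), chr3:31149670-31149969 on the plus strand (Cldn11), chr3:125938603-125938902 on the minus strand (Ugt8a) and chr9:120149492-120149791 on the plus strand (Mobp). The table of values was made on build mm39, so these positions are not those of the table. Each is written from 5′ to 3′, and capitals mark the searched motifs on either strand: ACAAAG or ACAATG (the core bound by SOX factors), CTGGCAC (the core bound by MYRF) and CAGATG or CATATG (E-boxes of the kind bound by OLIG factors).
Cnp: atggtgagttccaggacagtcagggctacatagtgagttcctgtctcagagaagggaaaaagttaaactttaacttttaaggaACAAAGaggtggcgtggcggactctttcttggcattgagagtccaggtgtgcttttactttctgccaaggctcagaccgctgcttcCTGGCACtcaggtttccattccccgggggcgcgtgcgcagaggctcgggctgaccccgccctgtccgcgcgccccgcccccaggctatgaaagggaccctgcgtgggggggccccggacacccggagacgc
Cldn11: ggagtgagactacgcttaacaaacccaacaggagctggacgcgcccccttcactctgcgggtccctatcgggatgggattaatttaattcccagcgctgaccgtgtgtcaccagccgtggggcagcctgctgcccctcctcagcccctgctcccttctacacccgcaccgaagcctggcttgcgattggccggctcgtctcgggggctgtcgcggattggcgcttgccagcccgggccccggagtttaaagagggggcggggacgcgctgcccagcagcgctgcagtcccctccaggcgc
Ugt8a: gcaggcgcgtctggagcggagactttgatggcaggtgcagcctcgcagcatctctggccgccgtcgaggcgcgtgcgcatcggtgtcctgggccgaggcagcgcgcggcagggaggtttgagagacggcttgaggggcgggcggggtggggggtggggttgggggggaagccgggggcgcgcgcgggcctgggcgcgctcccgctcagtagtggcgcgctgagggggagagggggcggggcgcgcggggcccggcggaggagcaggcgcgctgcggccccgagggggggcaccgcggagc
Mobp: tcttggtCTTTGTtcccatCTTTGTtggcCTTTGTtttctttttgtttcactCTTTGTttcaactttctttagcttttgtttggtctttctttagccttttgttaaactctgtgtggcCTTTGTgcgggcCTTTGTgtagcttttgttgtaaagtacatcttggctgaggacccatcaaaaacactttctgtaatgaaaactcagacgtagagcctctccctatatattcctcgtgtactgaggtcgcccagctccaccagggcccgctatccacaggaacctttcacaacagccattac

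The promoter of Cnp held 1 SOX core, starting 167 bases before the start site, and 1 MYRF core, starting 81 bases before it. The promoter of Mobp held 6 SOX cores. Those of Cldn11 and Ugt8a held none of the motifs, and were rich in G and C (66.3% and 78.3% of bases, against a median of 52.7% over all promoters). Among the promoters not shown, that of Mog held none, and 2 of the 3 start sites listed for Mag had 1 SOX core and 1 MYRF core each, where the windows overlap and hold the same letters. Over all 32851 promoters of this length, 28.6% held a SOX core, 5.01% a MYRF core and 20.3% an E-box of this kind. An E-box was found in 0 of the 8 promoters of the 6 genes, and the motifs found do not overlap each other. These matches are a description of letters and are no measure of binding.

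The libraries held 19816811 (siSCR) and 20072009 (siChd4) estimated counts, and 16605 and 16656 genes above 0. Chd4, the target, was at 203 TPM (a transcript level corrected for length and scaled to the same total in each library) in siChd4 and 250 TPM in siSCR, which gave a ratio of 0.815 (95% interval for counting error 0.795 to 0.836). Chd4 was thus lower in the library labelled as its knockdown, by less than 1.5-fold. Its log2 ratio on TPM plus 1 was -0.29, and the lower quartile of genes averaging 1 TPM or more was -0.24. Of those genes, 34.2% had a counting interval of the fold below 1, so such a drop was not particular to Chd4. The 9 listed markers of neural stem cells summed to 13610 TPM in siChd4 against 11474 TPM in siSCR. Most of this was Fabp7 (7004 and 6105 TPM) and Vim (4835 and 3340 TPM). Of the 9, 6 had a log2 ratio above 0 and 3 below. Slc1a3, 1 of the 3 below, was at 878 TPM in siChd4 against 1254 TPM in siSCR (0.701-fold, 0.690 to 0.711). Prom1, also below, was low in both libraries (4.72 and 8.37 TPM, 0.564-fold, 0.456 to 0.695). With 1 library in each group there is no test between conditions, and every difference is one between these libraries. Intervals cover counting error only. In bulk RNA, fewer cells of a type and less RNA per cell cannot be told apart.

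Of the 9 genes, 6 were at least 1.5-fold higher in the siChd4 library and 0 were lower. This limit was applied to TPM plus a pseudocount of 1. The same limit was passed upward by 5.86% of all 17359 genes. It was passed upward by 6.75% and downward by 4.47% of the 12882 genes whose TPM averaged 1 or more over the libraries, called the expressed genes below. The 6 higher genes are the stage markers Gpr17 and Bcas1, and Cnp, Ugt8a, Cldn11 and Mbp. They are also the 6 that count as expressed. Gpr17 reached that level only through its level in siChd4. The other genes, Mobp, Mag and Mog, together had 13.6 estimated counts in siSCR and 12 in siChd4.

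Most of the 6 lie in a range where ratios are wide. Among the 5163 genes with a mean of 1 to 20 TPM, a range chosen after the values were seen, 12.4% were at least 1.5-fold higher. Gpr17, Cldn11, Mbp and Ugt8a are in that range, while Bcas1 and Cnp are above it. The counting interval of the fold lay above 1 for the same 6 genes, against 25.1% of expressed genes, and below 1 for 0 of the 9, against 34.2%. The median log2 ratio of the 9 genes was 0.89, and that of the expressed genes was -0.04.

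**Figure D1:**
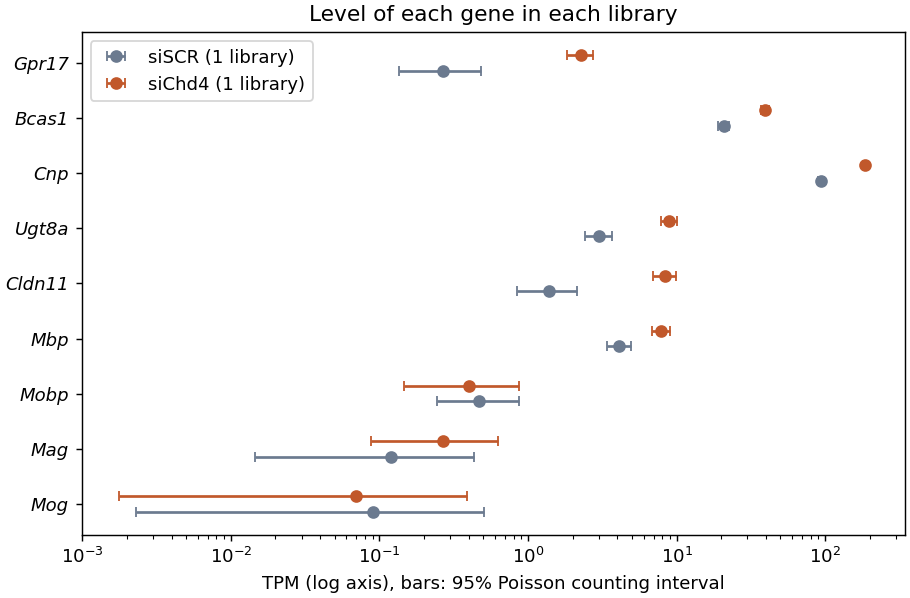
TPM (log axis) of each of the 9 genes in the siSCR and siChd4 libraries, with 95% Poisson counting intervals as bars. The intervals of the libraries are apart for the upper 6 genes, from Gpr17 to Mbp, and overlap for Mobp, Mag and Mog.

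Gpr17, a G protein-coupled receptor that appears as precursors commit and is switched off before they myelinate, had the widest ratio of the 9. It was at 2.27 TPM in siChd4 (97.3 estimated counts) and 0.27 TPM in siSCR (11.0 estimated counts). The fold was 8.41 (4.48 to 17.3), and the log2 ratio on TPM plus 1 was 1.36. Even in siChd4 its level was low, and 0.963% of the expressed genes had a higher log2 ratio. In the mouse annotation Gpr17 overlaps Lims2, a gene of the opposite strand that encodes a focal adhesion protein. Lims2 was at 2.13 TPM in siChd4 against 0.46 TPM in siSCR, from 30.5 and 6 estimated counts. Whether counting used strand is not given in the sources, so reads from the shared stretch cannot be told apart.

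Bcas1, a myelin-associated protein whose expression marks premyelinating and newly myelinating cells, was well above the floor in both libraries. It was at 39.3 TPM in siChd4 against 20.8 TPM in siSCR, from 973 and 487 estimated counts. The fold was 1.89 (1.70 to 2.12) and the log2 ratio 0.89. Its interval lay wholly below that of Gpr17, so these stage markers differed in the size of their ratio by more than counting error. The same limit of unknown strand holds for Bcas1, which overlaps the antisense genes Bcas1os1 and Bcas1os2.

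Cnp encodes a cyclic nucleotide phosphodiesterase that binds membranes and cytoskeleton and lies in the cytoplasm-rich parts of myelin. It was by far the most abundant of the 9, at 186 TPM in siChd4 against 93.5 TPM in siSCR, from 3512 and 1637 estimated counts. The fold was 1.98 (1.87 to 2.11) and the log2 ratio 0.98, with 2.33% of genes above it. This interval was the narrowest of the 9. Cnp overlaps Dnajc7, a chaperone gene of the opposite strand, which was nearly equal at 207 and 203 TPM.

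Ugt8a, the galactosyltransferase that turns ceramide into galactosylceramide, was at 8.92 TPM in siChd4 against 3.0 TPM in siSCR, from 272 and 87.9 estimated counts. The fold was 2.97 (2.33 to 3.82) and the log2 ratio 1.31. Cldn11, the claudin of myelin tight junctions, was at 8.30 TPM in siChd4 against 1.39 TPM in siSCR, from 126 and 19.99 estimated counts. The fold was 5.97 (3.71 to 10.1). Its log2 ratio of 1.96 was the highest of the 9 on TPM plus 1, and 0.248% of genes were above it. The intervals of Cldn11 and Gpr17 overlap each other, and both lie above those of Bcas1, Cnp and Mbp.

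Mbp, myelin basic protein, which holds the inner faces of the membrane together, was at 7.84 TPM in siChd4 against 4.13 TPM in siSCR, from 203 and 119 estimated counts. The TPM fold was 1.90 (1.51 to 2.40), and the ratio of counts per library was 1.68 (1.34 to 2.13). These differ because the transcript length behind the TPM of Mbp, relative to other genes, was 0.851 times as long in siChd4 as in siSCR. For the other 5 expressed genes of the 9 this quotient was between 0.987 and 1.02. It was 0.631 for Mobp and 1.23 for Mog, both from few counts. The Mbp gene also gives rise to longer golli transcripts, which are made outside oligodendrocytes too, and a table with 1 value per gene does not separate them.

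Mobp, another small basic protein of compact myelin, was at 0.40 TPM in siChd4 against 0.47 TPM in siSCR, from 6 and 10.6 estimated counts. The interval of its TPM fold, 0.249 to 2.42, includes 1. So does that of its ratio of counts per library, 0.559 (0.164 to 1.59). Mag, the adhesion molecule that faces the axon, was at 0.27 and 0.12 TPM, from 5 and 2 estimated counts, a ratio of 2.25 with an interval of 0.368 to 23.6. Mog, an immunoglobulin-family protein of the outer myelin surface, had 1 estimated count in siChd4 against 0.99 in siSCR, below the floor of 3 counts in both, so no fold is given. The TPM fold intervals of Mobp and Mag include the folds of Cnp and Bcas1, so at this depth they do not separate such a difference from none. The interval of the Mobp count ratio lies below those folds. For Mog the counts were too few to tell.

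**Figure D2:**
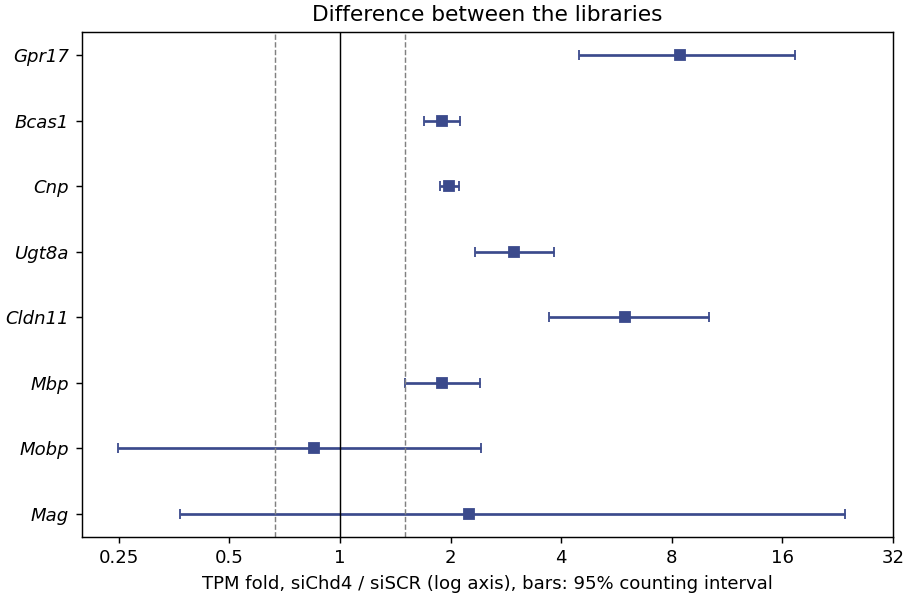
TPM fold of siChd4 over siSCR (log axis) with 95% counting intervals for the 8 genes above the floor of 3 counts in at least 1 library; dashed lines mark 1.5-fold in each direction. Gpr17 (8.41) and Cldn11 (5.97) are furthest right, Bcas1, Cnp and Mbp lie between 1.89 and 1.98, and the bars of Mobp and Mag cross 1.

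The order of the levels per length was similar in the libraries but not the same. In siChd4 the order was Cnp, Bcas1, Ugt8a, Cldn11, Mbp, Gpr17, Mobp, Mag and Mog. The counting intervals of Ugt8a and Cldn11, of Cldn11 and Mbp, of Mobp and Mag, and of Mag and Mog overlap. In siSCR Mbp stood above Ugt8a and Cldn11, and Gpr17 below Mobp, and the intervals of all neighbours from Cldn11 downward overlap, as do those of Mbp and Ugt8a. Cnp made up 73.4% of the summed TPM of the 9 genes in siChd4 and 75.6% in siSCR. The sum was 253 TPM in siChd4 against 124 TPM in siSCR (2.04-fold), and without Cnp it was 67.4 and 30.2 TPM (2.23-fold).

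**Figure D3:**
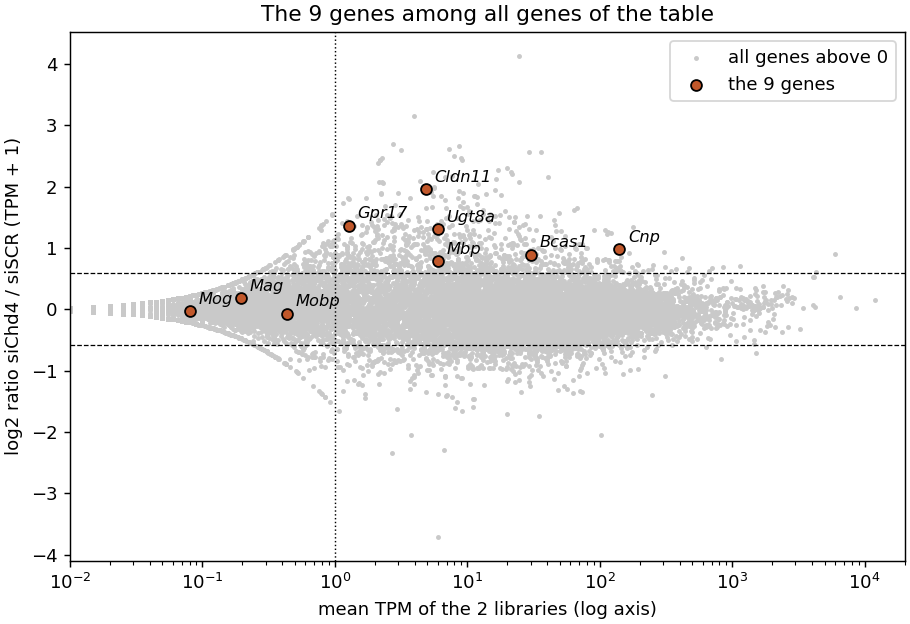
Log2 ratio (siChd4 over siSCR, TPM plus 1) against mean TPM (log axis) for all genes above 0 in grey, with the 9 genes in orange; dashed lines mark 1.5-fold and the dotted line a mean TPM of 1. Gpr17, Cldn11, Ugt8a, Mbp, Bcas1 and Cnp lie above the upper dashed line, and Mog, Mag and Mobp lie to the left of the dotted line near 0.

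Other structural genes of myelin and mature oligodendrocytes were mixed. Of 31 listed genes, 30 were in the table and 19 were expressed. Of these 19, 7 were at least 1.5-fold higher in siChd4, 1 was lower and 11 were neither. The median log2 ratio was 0.36 over the 19 and 0.25 over the 30. Septin4, a filament-forming septin of the myelin sheath, was at 103 TPM in siChd4 against 31.9 TPM in siSCR (3.22-fold, 2.85 to 3.64), and Plekhb1, a membrane protein with a pleckstrin homology domain, at 253 and 99.8 TPM (2.54-fold, 2.39 to 2.70). Car2, a carbonic anhydrase, was the 1 lower gene, at 114 TPM in siChd4 against 226 TPM in siSCR (0.504-fold, 0.474 to 0.535). Opalin, a membrane protein of mature oligodendrocytes picked here after its values were seen, had 16 estimated counts in siChd4 against 1 in siSCR.

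Most lipid genes were within 1.5-fold on TPM plus 1, unlike Ugt8a. Of 15 listed lipid genes, mostly of myelin sphingolipid synthesis and turnover, 14 were expressed, with a median log2 ratio of -0.11. Of these, 1 was at least 1.5-fold higher, 2 were lower and 11 were neither. Over all expressed genes 6.75% were higher and 4.47% lower, so most genes of any kind were within this limit. By the counting interval, 3 of the 14 were above 1 and 7 below. The higher gene was Gal3st1, the sulfotransferase that acts on the product of Ugt8a to make sulfatide. It was at 4.28 TPM in siChd4 against 0.26 TPM in siSCR, from 64.0 and 3.94 estimated counts, a fold of 16.5 with a wide interval of 6.03 to 61.3, and it counts as expressed only through its level in siChd4. Elovl7, a fatty acid elongase, was lower (1.46 against 3.58 TPM), as was the phospholipase gene Pla2g16 (8.53 against 17.1 TPM).

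Among 15 genes of committed and premyelinating cells, 10 were expressed, and 2 of these were at least 1.5-fold higher and 0 lower, with a median of -0.24. The higher genes were Snx22, a sorting nexin (7.52 against 3.49 TPM), and Lims2, which overlaps Gpr17 as given above and, like it, counts as expressed only through its level in siChd4. The other 8 expressed genes listed for the stage of Gpr17 and Bcas1 were within 1.5-fold on TPM plus 1, as most expressed genes were. By the counting interval, 3 of the 10 were above 1 and 6 below. An example below, picked after the values were seen, is the semaphorin gene Sema4d (5.13 against 7.92 TPM, 0.648-fold, 0.535 to 0.781). Of the 14 listed precursor genes, 12 were expressed, and 7 of these were higher and 1 lower, with a median of 0.85. Matn4, 1 of the 7, counts as expressed only through its level in siChd4 (2.24 against 0.75 TPM). Lnx1, a ubiquitin ligase gene, was at 73.9 against 24.1 TPM. Pcdh15, a protocadherin, was at 6.82 against 2.10 TPM, and C1ql1, a secreted protein of the C1q family, at 5.46 against 1.83 TPM. Xylt1, which starts glycosaminoglycan chains, was the lower one (71.6 against 149 TPM).

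Of 18 listed regulators of maturation, 15 were expressed, with a median of -0.01, and 2 were higher and 0 lower. Sox10, which drives myelin gene transcription, was at 7.71 TPM in siChd4 against 1.05 TPM in siSCR (7.34-fold, 4.69 to 12.02), and Nkx6-2, a homeobox factor, at 3.73 and 1.71 TPM (2.18-fold, 1.21 to 4.11). The lists share a few genes, at most 4 of any one list.

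**Figure D4:**
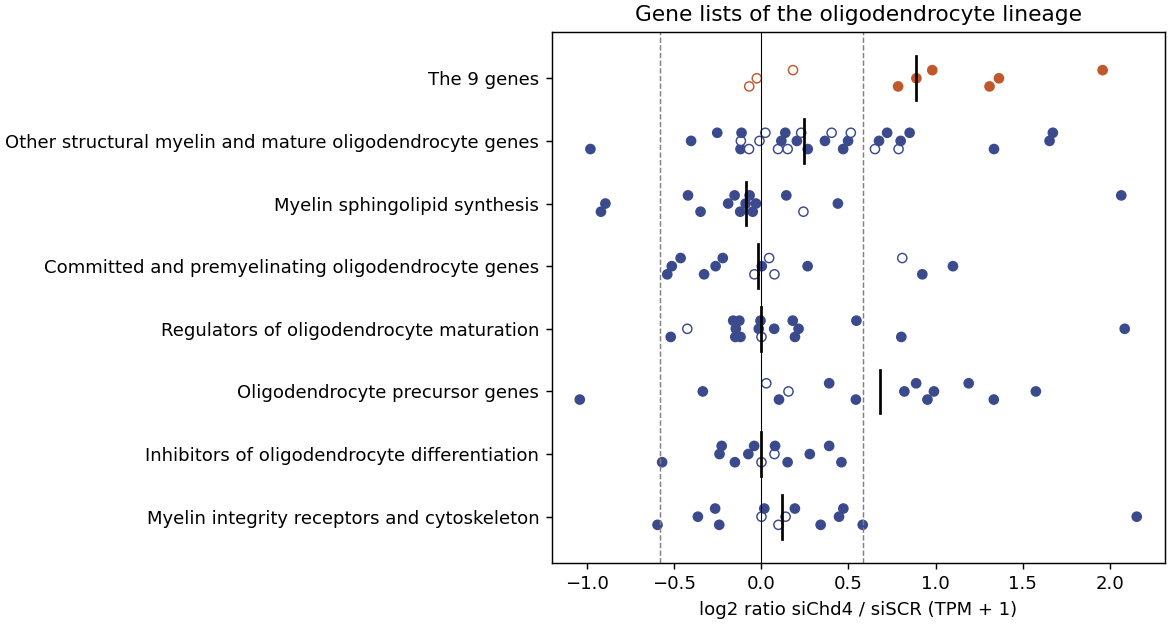
Log2 ratio (siChd4 over siSCR, TPM plus 1) for the 9 genes (orange) and for 7 lists of the oligodendrocyte lineage (blue); filled points are expressed genes (mean TPM of 1 or more), black bars are medians over all points of a row, and dashed lines mark 1.5-fold. The 9 genes and the precursor genes have the medians furthest to the right, at 0.89 and 0.68.

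Markers of other cell types were read beside these values. Schwann cells make myelin in peripheral nerves with some of the same genes. Of 9 Schwann cell markers 8 were in the table, 4 were expressed, and 0 of these were past 1.5-fold in either direction. Over all expressed genes 6.75% passed that limit upward and 4.47% downward, so 0 of 4 is near those shares. The counting interval lay above 1 for 3 of the 4 and below 1 for 0, with a median log2 ratio of 0.34. The summed level of the 8 was 27.3 TPM in siChd4 against 22.5 TPM in siSCR. Of 10 neuronal markers, 5 passed 1.5-fold upward and 0 downward, and the sum of the 10 was 1038 TPM in siChd4 against 752 TPM in siSCR. All 10 had a log2 ratio above 0, with a median of 0.65, and 8 had a counting interval above 1. The most abundant, Map2 (516 and 427 TPM), was within 1.5-fold. Of 8 astrocyte markers, 1 was higher (Sparcl1, 1059 against 653 TPM) and 2 lower (Gja1, 40.8 against 105 TPM, and Slc1a2, 58.4 against 94.1 TPM). The sums of the 8 were 1829 and 1397 TPM, and their median log2 ratio was -0.04. Of 9 neural stem cell markers, 1 was higher (Sox9, 81.1 against 51.0 TPM) and 1 lower (Prom1, 4.72 against 8.37 TPM). Of the 8 microglia markers in the table, 6 were below a mean of 1 TPM, among them Cx3cr1 (0.71 and 1.02 estimated counts). Of the 2 that were expressed, 1 was at least 1.5-fold higher and 0 lower. The higher one was P2ry12, a purine receptor, at 36.1 TPM in siChd4 against 6.84 TPM in siSCR (5.28-fold, 4.38 to 6.44), and the sums of the 8 were 72.0 and 41.7 TPM. Of the 7 endothelial markers found, 3 were expressed, 0 of them past 1.5-fold, and the sums of the 7 were 5.93 and 4.26 TPM. Of 8 fibroblast and smooth muscle markers 3 were expressed, 2 of them higher and 0 lower, and the sums of the 8 were 18.8 and 10.6 TPM. The higher ones were Tagln, of smooth muscle (6.53 against 2.14 TPM), and the collagen gene Col1a1 (1.96 against 0.64 TPM), which counts as expressed only through its level in siChd4. Aif1 of microglia and Dcn and Lum of fibroblasts were listed at 0 in siSCR, and C1qa of microglia at 0 in siChd4. The part of these other cell types in the values of the 9 genes was not tested.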

How the data were processed

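Illumina libraries were made from total RNA, per the labels. The authors deposited 1 table with FPKM, TPM and estimated counts per gene and library, per the file headers. The counts are estimated, since 16.0% (siSCR) and 17.8% (siChd4) of the values, zeros included, are whole to the decimals given. Per the submitters' processing notes, reads were placed on mm39. Aligner, counting tool and strand setting: not given in the sources used here.

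Log2 ratios (siChd4 over siSCR) were taken on TPM plus 1, which understates ratios of low genes. TPM folds have exact Clopper-Pearson 95% intervals from the counts rounded to whole numbers, scaled to the TPM fold, and levels have exact Poisson intervals. A floor of 3 counts was 0.151 (siSCR) and 0.149 (siChd4) CPM. The counts are of reads, and whether molecular identifiers were used is not known here, so reads may not be independent molecules. Computations used Python 3.11.15, scipy 1.17.1 and edgeR 4.0.16 (TMM factors only), and the interval code was tested on simulated data. All 9 members were named, and from each of 7 lists up to 4 genes with the widest ratios past 1.5-fold among expressed genes (mean TPM of 1 or more), or the 2 most abundant where none passed. Some genes of these lists are not reported here. Septin4 and Pla2g16 were matched by Entrez number through RefSeq names. No genes were ranked by likeness of pattern, since 2 libraries give 1 ratio per gene. Members and lists were chosen with earlier results of these data known. Alternatives were a pseudocount of 0.1, other scalings, FPKM, CPM with TMM, other limits and other filters.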

Additional observations from a re-analysis of the deposited data

How the results depend on the processing

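Of 45 log2 ratios of the 9 genes under other units, scalings and pseudocounts, 43 stayed within the counting interval, and none of the genes past 1.5-fold changed its direction. The others were Gpr17 and Mog with a pseudocount of 0.1 (2.68 and -0.16), which widens ratios of low genes by construction. The number of the 9 at least 1.5-fold higher was 6 or 7 under these settings, where the added gene was Mag with the smaller pseudocount, at 5 and 2 estimated counts. At limits of 2-fold and 4-fold it was 3 and 0, on TPM plus 1. The median of the 9 ranged from 0.81 (FPKM) to 0.93, and was 1.15 over the 6 that are expressed. Over all expressed genes, 870 were higher and 576 lower at 1.5-fold, 291 and 81 at 2-fold, 30 and 5 at 4-fold, 721 and 295 on FPKM, and 3236 and 4400 by the counting interval. Where the mean had to reach 5 TPM, 533 were higher. On FPKM, whose values are smaller, the same pseudocount narrows ratios; how much this moved the numbers was not tested. The range of 1 to 20 TPM was added after the values were seen. Depth limits Mobp, Mag and Mog most. No paired analysis was possible because there was 1 library per group, and for the same reason no library could be left out.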

Other observations

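No gene listed as an inhibitor of oligodendrocyte differentiation passed 1.5-fold. Of 13 listed genes, 11 were expressed (mean TPM of 1 or more), and 0 of these were past 1.5-fold in either direction, with a median log2 ratio of -0.04. That limit was passed upward by 6.75% and downward by 4.47% of all expressed genes, so 0 of 11 is near those shares. The most abundant were Id2, which blocks basic helix-loop-helix factors (178 TPM in siChd4 against 198 TPM in siSCR), and the transcription factor gene Tcf4 (167 and 198 TPM). Tcf4 was listed by its symbol, is a different gene from Tcf7l2, and is not established here as an inhibitor. The counting interval of the fold lay above 1 for 3 of the 11 and below 1 for 4. Notch1, a receptor picked here after its values were seen, was just short of the limit at 60.8 and 90.8 TPM (0.670-fold, 0.645 to 0.695). Of 14 receptors and cytoskeleton genes of myelinating cells, 11 were expressed (mean TPM of 1 or more), and 1 was higher and 1 lower, with a median of 0.19. The higher gene was Tubb4a, a tubulin of neurons and oligodendrocytes, at 67.0 TPM in siChd4 against 14.2 TPM in siSCR (4.70-fold, 4.07 to 5.45). The lower was Dlg1, a scaffold protein gene, at 31.6 and 48.3 TPM (0.654-fold, 0.607 to 0.705).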
